A study of Bubalus bubalis with 6 samples.

Results

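The membrane trafficking host genes of buffalo adipose tissue were examined as 1 group, together with the circular RNAs (circRNAs) and the linear transcripts that they produced. A circRNA is a closed loop, formed when the end of an exon is joined back to the start of an exon at or before it, and the RNA-seq reads that cross this junction are called back-spliced reads. The gene that a circRNA is spliced from is its host gene. Host genes were taken by symbol alone, namely RAB, VPS, SNX, EXOC, TBC1D and SEC genes, the coat subunits COPB and COPG, the syntaxins (STX) and subunits or partners of the AP1, AP2 and AP3 adaptors. The rule did not look at function, so a member need not act in membrane traffic. It gave 388 of the 14990 circRNAs and 93 of the 4000 host genes that the circRNAs name by a single symbol. Of the other circRNAs, 754 had no symbol and 32 had several, and these were not considered as members.

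The libraries came from subcutaneous adipose tissue of Chinese swamp buffaloes (Bubalus bubalis), 3 young animals of 6 months and 3 adult animals of 30 months, which received no treatment and were kept on 1 farm under equivalent feeding. Each animal gave 1 library, made from total RNA after removal of rRNA, so that circular and linear RNAs were read in the same library. Reads were placed on the cattle genome (UMD3.1), and all positions below are cattle positions as deposited. The libraries held 10745 to 17680 back-spliced reads, and the p-values measure the spread between 3 animals per age.

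In a eukaryotic cell, cargo moves between compartments in vesicles and tubules. Coat proteins (COPII, COPI, clathrin with its adaptors) shape them, sorting nexins and retromer select cargo on endosomes, and small GTPases of the RAB family mark each membrane, kept in check by TBC-domain proteins that switch RABs off. Tethers such as the exocyst, HOPS, CORVET, GARP and EARP then catch the arriving membrane before SNARE proteins, the syntaxins among them, drive fusion. In adipocytes this machinery is known for carrying the insulin-responsive glucose transporter GLUT4 to the cell surface, a step in which RAB10, RAB14 and the RAB regulator TBC1D4 take part.

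The tissue label was checked against marker genes, which could be measured only where they are circRNA hosts, through the transcripts listed for them. Of the 12 listed adipocyte markers 7 were measured, and of the 7 stromal markers 3, so the sums rest on a subset. The summed level of the 7 adipocyte markers (such as PLIN4, LPL and PPARG) was 403 to 2544 FPKM in young libraries and 5249 to 9233 FPKM in adult libraries, and 4 of the 7 were higher in adults by the mRNA test described below. FPKM are fragments counted per length of transcript and per depth of the library. The 3 macrophage markers summed to 139 to 194 FPKM in young and 50.5 to 77.1 FPKM in adult libraries, and 1 of them was lower. For 2 markers of smooth muscle and pericytes these ranges were 43.6 to 136 and 16.9 to 26.4 FPKM, with 1 lower, and for 3 stromal markers 895 to 1859 and 811 to 1288 FPKM, with 1 lower. The 6 endothelial markers summed to 156 to 338 and 356 to 411 FPKM, with 1 higher, and 2 skeletal muscle markers stayed at 0.511 to 1.51 and 0.567 to 0.987 FPKM. No measured marker was at 0 in any library. The sums for adipocyte, endothelial, macrophage and smooth muscle markers did not overlap between the ages, while those for stromal and skeletal muscle markers did. Their part in the results that follow was not tested. In bulk tissue, fewer cells of a type and less RNA per cell cannot be told apart.

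The trafficking circRNAs carried 1641 of 83165 back-spliced reads, or 1.97%. In the young libraries they took 268, 234 and 332 reads, which were 1.95% (95% Wilson interval 1.73 to 2.20), 1.91% (1.68 to 2.16) and 1.88% (1.69 to 2.09) of all back-spliced reads. In the adult libraries they took 242, 341 and 224 reads, or 1.94% (1.71 to 2.19), 2.10% (1.89 to 2.33) and 2.08% (1.83 to 2.37). These intervals cover counting error only. The shares overlapped between the ages. On the deposited scale, in which the authors had scaled the back-spliced reads of each library, the summed level was 546 ± 68.2 (SD, n = 3) in young and 482 ± 30.6 (SD, n = 3) in adult libraries, and these ranges overlapped too.

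The number of different trafficking circRNAs was lower in the adult libraries. There were 131, 109 and 142 in the young and 99, 112 and 72 in the adult libraries. With each library reduced to 10745 back-spliced reads, the expected numbers were 114, 101 and 109 in young against 91.7, 92.0 and 72.0 in adult libraries, and these no longer overlapped. The ratio of adult to young means was 0.788, and over all circRNAs it was 0.759, so the whole table moved in the same direction. Of the 388 circRNAs, 173 (44.6%) were seen only in young libraries, 114 (29.4%) only in adult libraries and 101 (26.0%) in both, against 47.2%, 28.1% and 24.7% among the 13816 circRNAs of the other single-symbol host genes.

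Most trafficking circRNAs were rare. A single read supported 149 of them (38.4%, against 38.2% for other hosts), 248 were seen in 1 library only (63.9% against 64.7%), and 73 (18.8% against 18.9%) reached 3 of 6 libraries. Only 7 were found in all 6 libraries (1.80% against 2.95%), and these held 16.1% of the trafficking reads, whereas the corresponding circRNAs of other hosts held 34.8% of theirs. By type, 382 were exon circRNAs (98.5% against 91.3%), 5 were exon-intron circRNAs (1.29% against 7.96%) and 1 was an intron circRNA. The distance between the junction ends had a median of 13328 bases (11867 for other hosts) and ran from 186 bases for a RAB11A circRNA to 248224 bases for an EXOC6B circRNA. Only 16 of the 388 (4.12%, against 4.78%) were marked in the deposited table as already published for cattle. None of these shares was tested, since circRNAs of 1 host share a transcript.

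Junction ends were often reused. Of the 388 circRNAs, 292 (75.3%, against 69.3% for other hosts) shared a start or an end with another circRNA of the same gene. A host gave a median of 2 circRNAs in both sets. In 34 of the 93 trafficking hosts there was only 1, and 17 hosts (18.3% against 13.8%) gave more than 6. The reads were uneven over hosts, since the 10 hosts with the most reads held 777 reads (47.3%), while 52 hosts had fewer than 10. There were 19 hosts with a read in every library and 19 with reads in 1 library only.

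The VPS family, which holds tethers, retromer and ESCRT subunits, gave the most reads, 577 from 16 hosts and 98 circRNAs (35.2% of trafficking reads). It was followed by the RAB-inactivating TBC1D family (17 hosts, 94 circRNAs, 340 reads), the sorting nexins (14 hosts, 56 circRNAs, 223 reads), the exocyst (7 hosts, 47 circRNAs, 171 reads), the RAB genes with their partners (13 hosts, 27 circRNAs, 137 reads) and the SEC genes (11 hosts, 32 circRNAs, 121 reads). Adaptors (7 hosts, 21 circRNAs, 48 reads), COPI subunits (2 hosts, 6 circRNAs, 12 reads) and syntaxins (6 hosts, 7 circRNAs, 12 reads) gave few.

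Summed per family on the scaled level, the VPS family was at 172 ± 22.4 in young and 185 ± 52.2 in adult libraries, the TBC1D family at 107 ± 7.73 and 105 ± 32.3, and the exocyst at 52.1 ± 16.2 and 57.1 ± 5.13 (SD, n = 3 each). The sorting nexins were at 89.4 ± 13.5 and 53.3 ± 24.3, and the RAB genes at 53.0 ± 4.18 and 30.8 ± 22.9, and in both families the 2 ages overlapped because 1 adult library lay inside the young range. The syntaxins were the family whose reads all fell in 1 age. STX12 (an endosomal syntaxin), STX8, STX16-NPEPL1 (a readthrough symbol), STX18, STX2 and STX6 had 3, 4 and 5 reads in the young and none in the 3 adult libraries. With a floor of 3 reads over the adult group, the young mean was 4.31 times the floor. This ratio leaves out the counting error of the young reads, so it is not a lower bound. The 12 reads were too few for the test, as no syntaxin host reached 3 libraries. Being seen only in young libraries was common, at 47.2% of the circRNAs of other single-symbol hosts.

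VPS50 stood far above the other hosts. It encodes the subunit that sets the EARP tether of endocytic recycling apart from the GARP tether, and it held 253 reads, which were 15.4% of the trafficking reads and 43.8% of those of its family. Among all 4000 hosts it ranked 29th by reads and 19th by the number of circRNAs, of which it had 24. Its reads were 25, 29 and 36 in the young and 27, 89 and 47 in the adult libraries. The second and the third adult library were above every young library in VPS50 reads and the first was not, so the ages overlapped. The share of VPS50 among the trafficking reads was 9.33%, 12.4% and 10.8% in young and 11.2%, 26.1% and 21.0% in adult libraries.

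The 24 VPS50 circRNAs lay within 105 kb of chromosome 4, and 8 of them began at the same position, 10454082. These 8 held 220 of the 253 reads (87.0%). The reads of the 8 were 21, 27 and 22 in young and 24, 82 and 44 in adult libraries. Of these, 4:10454082|10506122, which spans 52.0 kb, had 76 reads, 4:10454082|10461898 (7.82 kb) had 64 and 4:10454082|10478568 (24.5 kb) had 61. Each of the remaining VPS50 circRNAs had at most 9 reads, as the map of their extents shows.

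**Figure D1:**
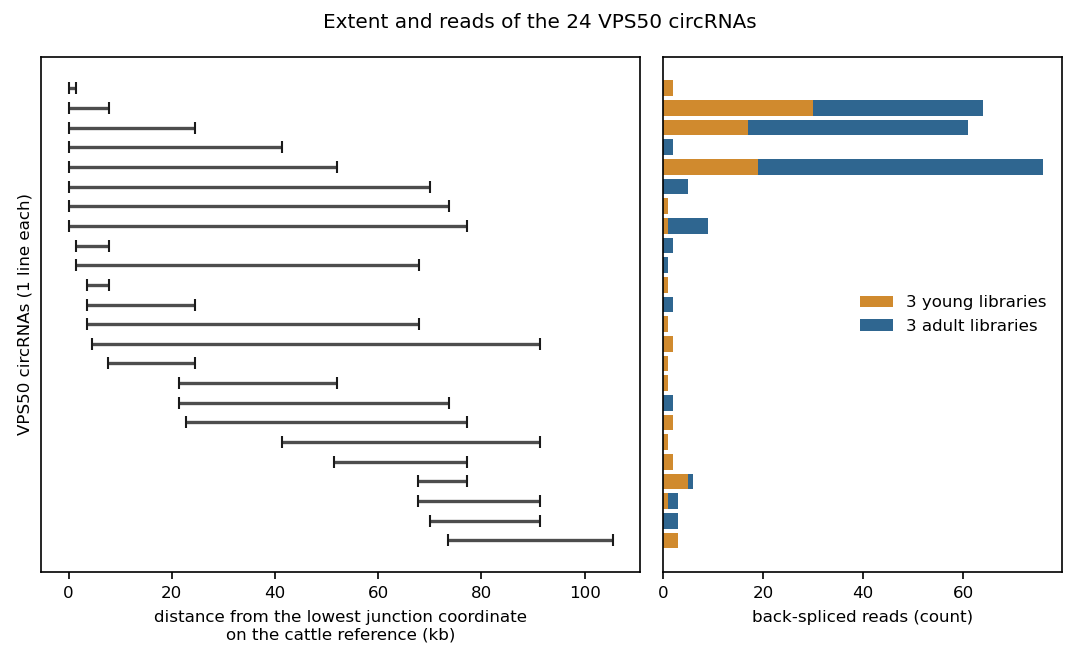
Extent of the 24 VPS50 circRNAs (left, distance in kb from their lowest junction coordinate, 1 line per circRNA with ticks at its junction ends) and their back-spliced reads (right, count, summed over 3 young and 3 adult libraries). The 8 circRNAs at the top share 1 end and hold 220 of 253 reads, and only 3 of all 24 exceed 60 reads.

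The 3 leading VPS50 circRNAs had unlike fitted log2 fold changes. 4:10454082|10506122 had 6, 9 and 4 reads in young and 12, 31 and 14 in adult libraries, or 13.8 ± 8.89 and 33.0 ± 12.4 on the scaled level (SD, n = 3). Each adult library had more of these reads than any young one, but on the scaled level the ages just overlapped, at 23.3 for the second young and 23.2 for the first adult library. The log2 fold change of adult over young was 1.33 (SE 0.61), and limma's moderated test gave an adjusted p of 0.233. 4:10454082|10461898 had 11, 6 and 13 against 9, 17 and 8 reads, or 19.0 ± 3.73 and 19.9 ± 5.13 scaled reads (SD, n = 3). Adult over young gave 0.05 on the log2 scale (SE 0.51, limma adjusted p = 0.963). 4:10454082|10478568 had 2, 10 and 5 against 0, 28 and 16 reads and was thus missing from the first adult library. Its scaled level was 12.4 ± 11.8 in young and 25.1 ± 22.3 in adult libraries (SD, n = 3), so its mean was higher in adults. The log2 fold change is a difference of mean log2 values that include the 0 of the first adult library. It was 0.13 (SE 1.30, adjusted p = 0.965 by limma). Whether the 3 differ from each other in their change was not tested.

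No trafficking circRNA passed the test between the ages. Of the 388, 73 had a read in at least 3 libraries and entered the limma fit of all 2834 such circRNAs, and 0 of the 73 passed an adjusted p of 0.05, where 0.882% of all tested circRNAs passed (0.106% higher and 0.776% lower in adults). The smallest adjusted p of a member was 0.0897. At an unadjusted p under 0.05 there were 5 members, all lower in adults, or 6.85% against 22.1% of all tested circRNAs. Some of the 5 had reads in young libraries only and met the filter through these alone. With voom weights on the recovered reads, 1 member was past the threshold, and the share of all tested circRNAs in that fit is not given. Of the 73, 43 had a log2 fold change below 0 (58.9% against 58.6%), and the median log2 fold change was −0.37 against −0.34 for all. A fold change below 0 is a lower mean of log2 values in adults, and not always a lower mean of the scaled level. Both values lay near those of the whole table.

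Among the 10 most abundant trafficking circRNAs, that of SNX4 had the smallest p. SNX4 is a sorting nexin that returns cargo from endosomes. Its circRNA 1:70538727|70539569 had 6, 12 and 4 reads in the young and 0, 2 and 0 in the adult libraries, or 12.5, 31.1 and 5.68 against 0, 3.03 and 0 scaled reads. Every young library was above every adult one. The log2 fold change was −3.16 (SE 0.94) with an adjusted p of 0.0897 by limma, and 0.0123 with voom weights, which was the member past the threshold there. A second SNX4 circRNA with the same start, 1:70538727|70545898, had 3, 3 and 6 against 1, 2 and 3 reads (18 in all), so the ages met at 3 reads. On the scaled level they parted only narrowly, at 6.26 for the first young and 6.17 for the third adult library (log2 fold change −0.95, SE 0.74, limma adjusted p = 0.556).

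RAB11A, the GTPase of recycling endosomes, gave the circRNA 10:12697532|12699394, which is marked as published for cattle. It had 9, 5 and 13 reads in young and 0, 7 and 6 in adult libraries (40 in all), and its scaled level was higher in each young library, although the third adult library at 12.3 lay close to the second young one at 13.0. The log2 fold change was −1.71 (SE 0.97, limma adjusted p = 0.369). RAB28, a RAB known from cilia, gave the published 6:113544014|113562745 with 7, 7 and 6 against 0, 8 and 1 reads, where the second adult library fell inside the young range. VPS37A, an ESCRT-I subunit, gave 27:19036244|19038895 with 5, 4 and 10 against 13, 9 and 2 reads, and here the adult libraries spread around the young ones.

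The other abundant circRNAs varied as much within an age as between ages. TBC1D4, also known as AS160, restrains GLUT4 traffic until insulin signalling inactivates it. Its circRNA 12:50735256|50745683 had 1, 0 and 17 reads in young and 2, 3 and 7 in adult libraries, so that 17 of 30 reads came from 1 young animal. A second one, 12:50739487|50756102, had 0, 0 and 3 against 14, 4 and 0 reads, and 14 of its 21 reads came from 1 adult animal. SEC24A, a cargo-binding subunit of the COPII coat, gave 7:47785134|47785616 with 3, 8 and 2 against 0, 12 and 3 reads. VPS54, the subunit specific to GARP, gave 11:62362483|62373779 with 3, 2 and 8 against 3, 3 and 4 reads. All 4 of these circRNAs overlapped between the ages.

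Another 3 circRNAs had a read in every young and in no adult library, and none showed the opposite. VPS13C, a lipid transfer protein at membrane contacts, gave 10:48121061|48125338 with 2, 3 and 3 reads. Its young mean was 2.94 times a floor of 3 reads over the adult group. VPS53, shared by GARP and EARP, gave 19:22785977|22800771 with 3, 2 and 2 reads, at 2.59 times the floor. EXOC6B, an exocyst subunit, gave 11:11956149|12086267 with 2, 1 and 1 reads, at 1.49 times the floor. These ratios leave out the counting error of the young reads, so they are not lower bounds of the change. All 3 had the same limma adjusted p of 0.0897 as the SNX4 circRNA, and so did not pass. They met the filter of 3 libraries only through the young libraries, where they were seen, so these p-values give no support for a difference. In all, 8 of the 73 tested circRNAs were lower in every adult than in any young library, where 18.5% of all tested circRNAs were, and 0 were higher, where 6.46% were. The members with the smallest p among those with a higher mean in adults were 4:10454082|10506122 above, 4:10454082|10531245 of VPS50 (log2 fold change 1.89, limma adjusted p = 0.281) and 1:82862386|82881476 of VPS8, a CORVET subunit (1.35, limma adjusted p = 0.471).

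When the circRNAs were summed per host gene, more reads stood behind each value, and still no trafficking host passed. Of the 93 hosts, 58 had reads in at least 3 libraries, and 0 of them reached a limma adjusted p of 0.05, where 3.11% of 2090 host genes did (0.67% higher and 2.44% lower). The smallest adjusted p was 0.108. At an unadjusted p under 0.05 there were 8 hosts, 1 higher and 7 lower, or 13.8% against 20.9% of all hosts. With voom weights 1 host passed, VPS53, at an adjusted p of 0.0492, and the share of all hosts in that fit is not given. The median log2 fold change was −0.53 (−0.40 for all hosts), and 35 of 58 hosts had a log2 fold change below 0 (60.3% against 62.3%). On the scaled level, 7 hosts were lower and 2 were higher in every adult library than in any young one, or 12.1% and 3.45% of the 58, where 17.8% and 6.41% of all hosts were.

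**Figure D2:**
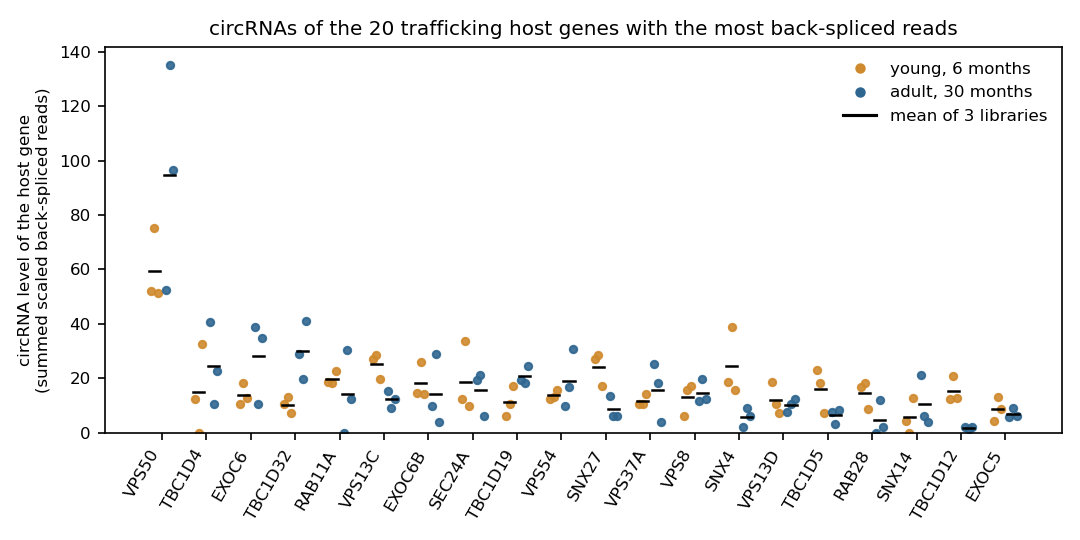
circRNA level of the 20 trafficking host genes with the most back-spliced reads (scaled back-spliced reads summed over the circRNAs of a host). Each point is 1 library, orange for young and blue for adult, and the bars are means of 3 libraries. VPS50 lies above 50 in all 6 libraries, the adult points of TBC1D12 lie near 2, and in most hosts the ages overlap.

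The hosts whose circRNAs were lower in every adult library were TBC1D12, SNX4, SNX27, VPS13C, VPS41, SNX9 and TBC1D22A, and 4 of them are described here. TBC1D12, a TBC-domain protein of recycling endosomes, had 6, 8 and 9 reads in young and 1, 1 and 1 in adult libraries over 8 circRNAs. Adult over young was −2.50 on the log2 scale (SE 0.84, limma adjusted p = 0.108). SNX4 had 9, 15 and 11 against 1, 6 and 3 reads (−1.98, SE 0.72, limma adjusted p = 0.118). SNX27, the nexin that works with retromer to recycle membrane proteins, had 13, 11 and 12 against 7, 4 and 3 reads over 10 circRNAs (−1.45, SE 0.63, limma adjusted p = 0.181). For TBC1D12 and SNX27 no single circRNA held more than 34.6% of the reads of both ages together. The SNX27 junctions did not all move alike. Its leading circRNA, 3:19146107|19156010, had 2, 2 and 3 against 6, 0 and 0 reads, while 3:19130387|19178293 had 4, 4 and 1 against 0, 1 and 0. VPS13C had 13, 11 and 14 against 8, 6 and 6 reads over 16 circRNAs (−0.99, SE 0.57, limma adjusted p = 0.355).

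VPS53 had the largest fitted decrease among the host sums, with 13, 5 and 3 reads in young and 3, 0 and 0 in adult libraries (−2.75, SE 1.08, limma adjusted p = 0.137). Its ages met at 3 reads, and on the scaled level the first adult library was above the third young one. The 2 hosts that were higher in every adult library were of the TBC1D family. TBC1D32, which in mouse is needed for cilium formation, had 5, 5 and 5 reads in young and 15, 13 and 20 in adult libraries over 14 circRNAs (log2 fold change 1.45, SE 0.58, limma adjusted p = 0.145). TBC1D19 had 3, 4 and 12 against 10, 12 and 12 reads over 18 circRNAs (0.92, SE 0.61, limma adjusted p = 0.458), and here the third young library lay just under the lowest adult one on the scaled level.

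The other hosts with many reads overlapped between the ages. TBC1D4 had 6, 0 and 23 reads in young and 21, 7 and 11 in adult libraries, with none in the second young library. EXOC6, an exocyst subunit, had 5, 7 and 9 against 20, 7 and 17 reads over 14 circRNAs (log2 fold change 0.82, SE 0.61, limma adjusted p = 0.509). RAB11A had 9, 7 and 16 against 0, 20 and 6 reads, so both its lowest and its highest count were in adults. VPS54, SEC24A and EXOC6B had 53 reads each, with limma adjusted p from 0.665 to 0.894. The hosts with the most different circRNAs were VPS50 (24), VPS8 (19), TBC1D19 (18), VPS13C (16) and EXOC6B (15), and VPS8 had 46 reads, of which its leading circRNA held 17.4%. At the other end, VPS37A and RAB28 had 2 circRNAs each and drew 93.5% and 96.7% of their reads from 1. AP3B1, of the AP-3 adaptor, gave 12 circRNAs from only 20 reads, and SEC62, of the ER translocon, gave 1 circRNA with 11 reads.

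Linear transcripts could be measured for all 93 hosts through 101 listed transcripts. Their levels had a median of 18.3 FPKM and ran from 0.720 FPKM for AP1S3 to 215 FPKM for RAB11A, as means of 6 libraries. Over the 93 hosts, the number of back-spliced reads and the FPKM had a Spearman rho of 0.067, against 0.267 over 3995 host genes, as a description of hosts measured in the same 6 libraries. SEC62, at 152 FPKM, had 11 back-spliced reads and VPS50, at 12.8 FPKM, had 253. VPS26A, the most abundant VPS transcript at 85.0 FPKM, had 1 back-spliced read, and SNX9, the most abundant nexin at 62.8 FPKM, had 9. The trafficking genes with much mRNA were thus often not those with many circRNA reads. In the exocyst the most abundant mRNA was EXOC4 (32.3 FPKM, 2 back-spliced reads), in the TBC1D family TBC1D15 (29.4 FPKM, 3 reads), among the adaptors AP2M1 (67.1 FPKM, 6 reads) and among the syntaxins STX12 (58.4 FPKM, 4 reads).

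The mRNA, unlike the circRNAs, gave calls. In the limma fit of 14695 genes and transcripts, 17 of the 93 trafficking genes passed an adjusted p of 0.05, 12 higher and 5 lower in adults. This is 18.3%, where 19.8% of all tested passed (10.5% higher, 9.30% lower), a share near that of the whole table. At an unadjusted p under 0.05 there were 36 (38.7% against 36.1%). The median log2 fold change was 0.18 against 0.01 for all, and 34 of 93 genes had a log2 fold change below 0 (36.6%, where 49.3% of all tested had). In 30 genes every adult library was higher and in 12 every adult library was lower, or 32.3% and 12.9%, where 22.3% and 20.4% of all tested were. All tested here mixes summed levels of host genes with single transcripts of other genes. The shares among the other host genes alone are not given, so these contrasts cannot be tied to trafficking genes. With the libraries shifted to an equal median, 17 of the 93 genes were higher and 3 lower, which are not the same genes as the 17 above. The share of all tested in that fit is not given. The summed FPKM of all transcripts was 1093382 to 1237794 in young and 657311 to 721755 in adult libraries, with 41.5% to 44.3% and 26.1% to 29.3% of it in the 10 most abundant, and its part in the calls was not tested beyond that shift.

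Many calls were lost when a library was left out, while the fold changes stayed in the same direction. Of the 17 genes, 0 held in each of the 6 fits that leave out 1 library, RAB14, RAB11A and VPS45 held in 4, and 8 held in at most 1. The log2 fold change was 1.30 to 1.70 for RAB14 over these fits, 0.91 to 1.07 for VPS45 and −0.81 to −0.69 for RAB11FIP2. The next counts are over all 93 trafficking genes, and those without a young library include genes outside the 17. Without the first young library 4 genes were higher and 1 lower, without the second 9 and 4, and without the third 12 and 4. Without the first adult library 0 were higher and 1 lower, without the second 0 and 0, and without the third 4 and 0. In these fits 1 age has 2 libraries. The shares of all tested features called in them are not given, so the loss cannot be set against that of the whole table.

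**Figure D3:**
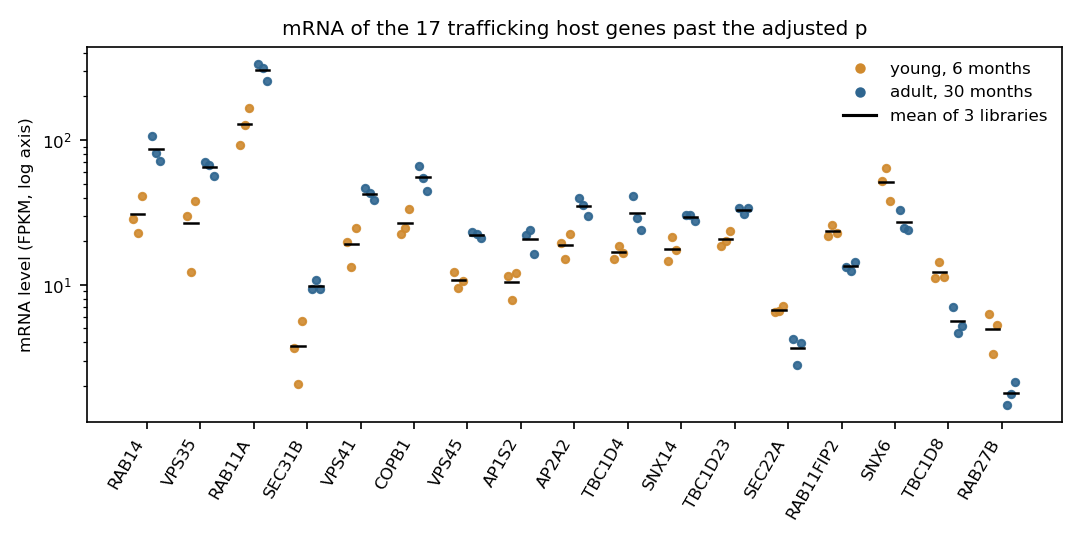
mRNA level (FPKM, log axis) of the 17 trafficking host genes past the adjusted p in the fit of all 6 libraries, ordered by fold change. Each point is 1 library, orange for young and blue for adult, and the bars are means of 3 libraries. In each gene the ages are separate, and the 12 genes on the left are higher and the 5 on the right lower in adults.

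Among the RAB genes, RAB14, which acts between Golgi and endosomes, showed the largest increase of a called gene. It was at 28.6, 22.8 and 40.9 FPKM in young and 107, 81.3 and 72.1 FPKM in adult libraries. Its log2 fold change on the FPKM + 1 scale was 1.49 (SE 0.27, limma adjusted p = 0.0119). RAB11A, the most abundant trafficking mRNA, was at 91.9, 127 and 165 against 335, 314 and 257 FPKM, with each adult library well above the young ones (1.26, SE 0.27, limma adjusted p = 0.0192). RAB11FIP2, an effector through which RAB11 binds motor proteins, moved the other way, from 21.9, 25.7 and 22.6 to 13.4, 12.5 and 14.3 FPKM (−0.76, SE 0.17, limma adjusted p = 0.0251). RAB27B, a RAB of regulated secretion, also fell, from 6.27, 3.32 and 5.25 to 1.49, 1.76 and 2.14 FPKM (−1.06, SE 0.26, limma adjusted p = 0.0314). The other 9 of the 13 genes did not pass. RAB10, the RAB known to act downstream of TBC1D4 in adipocytes, was at 58.1, 69.4 and 100.2 against 67.3, 61.9 and 46.7 FPKM (limma adjusted p = 0.379).

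TBC1D4 itself rose, from 15.2, 18.5 and 16.6 to 40.9, 28.9 and 23.8 FPKM, with the adult libraries above the young ones but spread widely. Its log2 fold change was 0.83 (SE 0.24, limma adjusted p = 0.0498), and the call was lost in each fit that left out a library, with an adjusted p of 0.0594 to 0.147. TBC1D23, a tether at the trans-Golgi, rose from 18.5, 19.9 and 23.4 to 33.7, 31.0 and 34.0 FPKM (0.66, SE 0.18, limma adjusted p = 0.0427). TBC1D8 fell from 11.2, 14.3 and 11.4 to 7.00, 4.66 and 5.17 FPKM (−1.01, SE 0.22, limma adjusted p = 0.0200). The family therefore had 2 genes higher, 1 lower and 14 that did not pass, with a median log2 fold change of −0.04. TBC1D1, the close relative of TBC1D4, was at 16.9 ± 4.76 and 18.8 ± 1.83 FPKM (SD, n = 3; limma adjusted p = 0.613).

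In the VPS family 3 of 16 genes were higher, 0 lower and 13 did not pass, and the median log2 fold change was 0.38. VPS45, which binds syntaxins on endosomes, rose from 12.2, 9.57 and 10.6 to 23.1, 22.6 and 21.0 FPKM, with little spread within either age (0.98, SE 0.18, limma adjusted p = 0.0119). VPS41 of the HOPS tether rose from 19.7, 13.2 and 24.9 to 46.6, 42.7 and 38.5 FPKM (1.15, SE 0.25, limma adjusted p = 0.0231). VPS35, the core of retromer, rose from 30.0, 12.2 and 37.8 to 70.0, 67.6 and 56.6 FPKM (1.38, SE 0.40, limma adjusted p = 0.0498), and the second young library was far below the other two. Its retromer partner VPS26A was at 62.4 ± 17.4 and 108 ± 9.09 FPKM (SD, n = 3) with no overlap, and did not pass (0.81, limma adjusted p = 0.0617). VPS13D lay at the threshold with a limma adjusted p of 0.050, just outside it. VPS50 was at 9.65, 14.6 and 10.9 against 14.7, 14.1 and 12.8 FPKM (0.24, SE 0.21, limma adjusted p = 0.423), so the mRNA of the leading circRNA host did not separate the ages.

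Of the 14 sorting nexins, 1 was higher and 1 lower. SNX14, a nexin of the ER surface known for lipid droplet contacts, rose from 14.6, 21.3 and 17.3 to 30.5, 30.4 and 27.8 FPKM (0.72, SE 0.20, limma adjusted p = 0.0442). SNX6, a membrane-bending partner of retromer, fell from 52.1, 64.4 and 38.1 to 32.8, 24.8 and 23.8 FPKM (−0.88, SE 0.25, limma adjusted p = 0.0485). SNX1 and SNX2, of the same sorting coat, were lower in every adult library at log2 fold changes of −0.44 and −0.43 but did not pass (limma adjusted p = 0.110 and 0.144). The mRNA of SNX4, whose circRNAs are described above, was at 23.3, 37.4 and 32.2 against 23.1, 17.8 and 18.5 FPKM. It was thus lower in every adult library too, if barely in the first, and did not pass (−0.60, SE 0.23, limma adjusted p = 0.109). That of SNX27 was also lower in every adult library (−0.27, limma adjusted p = 0.302). SNX24 lay just outside the threshold (0.88, limma adjusted p = 0.0516), at 24.3 ± 3.02 and 46.7 ± 14.8 FPKM (SD, n = 3).

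The coats and adaptors added 4 genes that rose and 1 SEC gene that fell. COPB1 of the COPI coat rose from 22.5, 24.8 and 33.3 to 66.2, 55.0 and 44.6 FPKM (1.01, SE 0.24, limma adjusted p = 0.0266). SEC31B, an outer subunit of the COPII coat, rose from 3.65, 2.05 and 5.66 to 9.36, 10.8 and 9.36 FPKM (1.25, SE 0.30, limma adjusted p = 0.0298). Both coats thus had a subunit that was higher in each adult library. AP2A2, of the adaptor for clathrin endocytosis, rose from 19.5, 15.0 and 22.4 to 39.7, 35.8 and 30.0 FPKM (0.87, SE 0.22, limma adjusted p = 0.0333). AP1S2, of the Golgi and endosome adaptor, rose from 11.5, 7.84 and 12.2 to 22.1, 23.9 and 16.4 FPKM (0.93, SE 0.24, limma adjusted p = 0.0372). SEC22A, related to the ER vesicle SNARE SEC22B, fell from 6.52, 6.62 and 7.10 to 4.20, 2.77 and 3.99 FPKM (−0.75, SE 0.21, limma adjusted p = 0.0449). Other subunits of the same complexes did not pass, among them AP2M1 (limma adjusted p = 0.462), SEC24A (0.519), SEC13 (0.596) and COPG2 (0.115).

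In the exocyst 0 of 7 genes passed, and the median log2 fold change was 0.33, from 0.04 for EXOC6 to 0.70 for EXOC4. At 24.7 ± 6.05 and 39.9 ± 2.14 FPKM (SD, n = 3), EXOC4 had the smallest limma adjusted p, 0.0688. In the syntaxins 0 of 6 passed, with a median of −0.15, and the STX12 mRNA was at 61.8 ± 15.3 and 54.9 ± 9.47 FPKM (SD, n = 3; limma adjusted p = 0.683) while its 4 back-spliced reads were all young. The summed FPKM of the 93 hosts was 1977, 2263 and 2510 in young and 2938, 2678 and 2519 in adult libraries. No adult sum was inside the young range, but without RAB11A the sums were 1885, 2136 and 2345 against 2603, 2364 and 2262 FPKM, which overlapped.

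To ask whether the circRNAs of a host changed by another amount than its mRNA, the difference of the 2 log2 values in each library was fitted for 2080 host genes. Of 58 trafficking hosts, 0 passed a limma adjusted p of 0.05, where 1.59% of all hosts did (0.0962% higher and 1.49% lower), and the smallest was 0.0806. At an unadjusted p under 0.05 there were 8, 1 with the circRNA side higher and 7 with it lower, or 13.8% against 17.5%. The median difference was −0.78 (−0.51 for all hosts), and 39 of 58 were below 0 (67.2% against 66.4%). As in the whole table, the difference was more often below 0. The pseudocount of 1 pulls the circRNA fold of a host with few reads toward 0, so its difference can mirror its mRNA fold. VPS35 had a difference of −1.28, while its scaled circRNA mean was 1.17 in young and 2.74 in adult libraries.

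**Figure D4:**
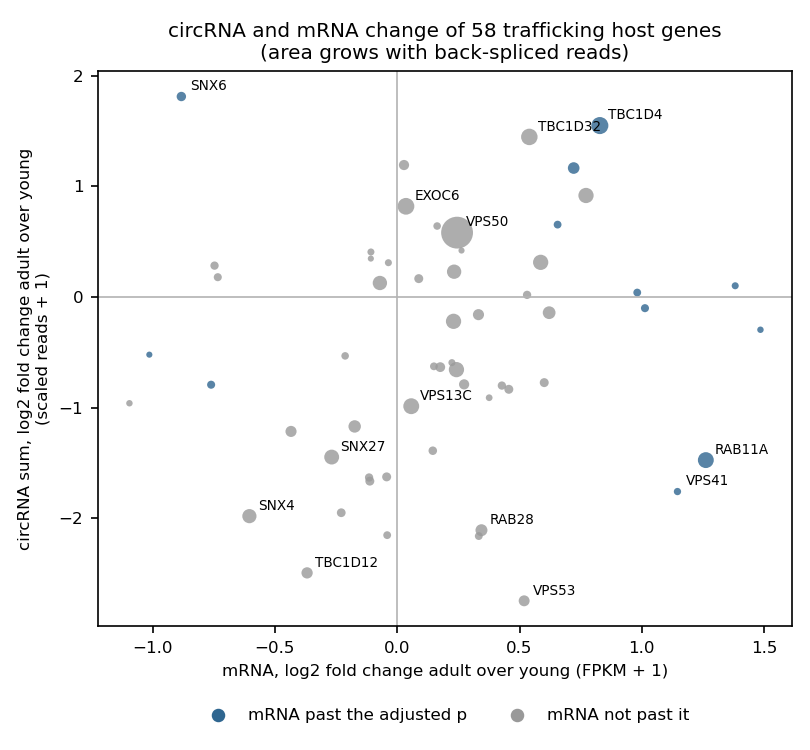
log2 fold change of adult over young for the mRNA (horizontal, FPKM + 1) and for the circRNA sum (vertical, scaled reads + 1) of the 58 trafficking host genes in both tests, 1 point per host. The area grows with the back-spliced reads, and blue points are hosts whose mRNA passed the adjusted p. RAB11A and VPS41 lie at the lower right (mRNA higher, circRNA mean lower), SNX6 at the upper left, and VPS50 near 0.24 and 0.58.

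The hosts at the extremes show both patterns. VPS53 had a circRNA sum that went from 13, 5 and 3 to 3, 0 and 0 reads while its mRNA was at 6.64, 6.18 and 7.80 against 12.8, 9.16 and 9.13 FPKM (difference −3.27, SE 0.94, limma adjusted p = 0.0806). Without the first adult library its difference passed, at an adjusted p of 0.0441. VPS41 had 1 adult and 6 young reads against a called rise of its mRNA (difference −2.91, SE 0.91, limma adjusted p = 0.104). RAB11A, with its mRNA up in each adult library and 0, 20 and 6 adult reads, had a difference of −2.74 (SE 1.15, limma adjusted p = 0.211). In SNX6 the signs were opposite, as its mRNA fell while its reads were 0, 0 and 2 in young and 8, 6 and 0 in adult libraries (difference 2.70, SE 1.11, limma adjusted p = 0.197). TBC1D4, whose mRNA rose and whose circRNA mean was also higher, had a difference of 0.72 (SE 1.09, limma adjusted p = 0.799). SNX4, whose mRNA and circRNA sum were both lower in every adult library, had a difference of −1.38 (SE 0.88, limma adjusted p = 0.440).

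Other genes of membrane traffic that the symbol rule left out were counted for comparison, from lists of clathrin and endocytosis genes, ARF GTPases, SNAREs, Golgi tethers, coat partners, RAB effectors and endosome sorting genes. Of 175 listed genes, 89 were host genes with a measured mRNA, and 10 of these were higher and 5 lower in adults by limma. This is 11.2% and 5.62%, where 10.5% and 9.30% of all tested were. Among 57 host sums, 1 was higher and 2 were lower (1.75% and 3.51%, where 0.67% and 2.44% of all hosts were). The sum of DENND5B, a RAB activator, was higher (limma adjusted p = 0.0442), and those of the ESCRT partner PDCD6IP (0.0135) and the syntaxin-binding STXBP3 (0.0410) were lower. In the difference of circRNA and mRNA, 1 of 57 was called, where 1.59% of all hosts were. It was STXBP3, with the circRNA side lower (limma adjusted p = 0.0324). Among 95 circRNAs 0 passed in limma, where 0.882% of all did. An unadjusted p under 0.05 was found for 16 of the 95, where 22.1% of all tested circRNAs had one.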

How the data were processed

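Tables that the authors deposited for 6 adipose libraries (3 of 6 months, 3 of 30 months, 1 animal each) were used, and reads were not reprocessed. Per the study's methods, Trim Galore removed adapters, STAR placed the reads on UMD3.1 of cattle and CIRCexplorer2 found the junctions. Each circRNA value that the authors deposited is a log2 of scaled back-spliced reads plus 1. Dividing 2 to the power of the value, minus 1, by 1 step per library (1.42 to 2.59 scaled reads) gave a whole number in 100% of values (tolerance 1e-06), and these were taken as the reads. The mRNA values that the authors deposited are log2(FPKM + 1), and the submitters' notes name TopHat2 2.0.14 and Cufflinks without giving the step of each. Deposited group means, fold changes, p-values and FDR between the ages were not used. Mapping buffalo reads to cattle can lose reads where the genomes differ.

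FPKM were summed over the transcripts listed for each host symbol, and 91 of the 93 symbols were found in the RefSeq gene table of buffalo, which served only to check names. limma 3.58.1 in R 4.3.3 (lmFit, eBayes with trend, no covariate) tested adult minus young, two-sided, with Benjamini-Hochberg adjustment over all features tested and a threshold of 0.05. The fits took circRNAs and host sums above 0 in at least 3 libraries, mRNAs whose FPKM averaged 0.5 or more, and for host genes the circRNA sum minus the mRNA, each with a pseudocount of 1. These folds understate the change of low values. The 58053 assembled transcripts entered as an alternative only. Expected numbers of circRNAs at 10745 reads came from the hypergeometric distribution. The steps were tested on simulated data.

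The members and lists were chosen with earlier results of these data known. Genes were named by a rule: those past an adjusted p (up to 8 per direction by fold change), the 10 circRNAs and 10 hosts with the most reads, the 5 hosts with the most circRNAs, the leading host by reads and by FPKM of each family, the 3 smallest p per direction and circRNAs seen in every library of only 1 age. Rule members past the limit of 8, and further subunits, neighbours of the threshold and hosts without overlap, were named after their values were seen. Alternatives changed the pseudocount, filter, scaling, variance model and block, or left out each library.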

Additional observations from a re-analysis of the deposited data

How the results depend on the processing

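No value named in the text turned its sign between alternatives where it was called. The shares of all tested features called in the alternatives are not given, so the counts below cannot be set against the whole table. For single circRNAs, replicate block and voom weights each gave 1 member lower in adults in place of 0, and for host sums voom weights gave 1 (VPS53). For the mRNA, 12 higher and 5 lower became 9 and 2 without a filter, 17 and 3 at an equal median, and 3 and 0 with the assembled transcripts added to the test, which enlarges the table that p-values are adjusted over. Leaving out each library in turn gave 0 to 12 higher and 0 to 4 lower mRNAs, and 0 to 1 host lower in the difference of circRNA and mRNA (VPS53, without the first adult library), while no left-out fit called a single circRNA or a host sum. As a share of all back-spliced reads, the ratio of adult to young trafficking reads was 1.07, against 0.884 on the deposited scale. That scale does not set the back-spliced total of each library equal, and why the scaled totals differ was not tested.

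The labels name no pairing of libraries with the same replicate number. Deviations of same-numbered libraries correlated at 0.036, 0.022 and 0.023 for circRNAs and at −0.066, −0.031 and −0.125 for mRNA. A shared batch can be neither shown nor excluded from these values. Each circRNA library correlated best with its own number, which is a hint from the data and not from the design, and mRNA libraries did not. With the replicate block there were 1 higher and 0 lower mRNAs (RAB14), 0 higher and 1 lower circRNA (SNX4), and 0 higher and 1 lower difference (VPS53). For circRNAs the prior degrees of freedom of limma were then 14225, so that the spread of each circRNA hardly entered its p.

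Depth limits most statements, as 52 of 93 hosts had fewer than 10 back-spliced reads and 315 of 388 circRNAs were in too few libraries to be tested.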
